A study of Homo sapiens with 8 samples.

Results

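The NRF2 system is represented here by 10 genes chosen by name: the transcription factor gene NFE2L2, its negative regulator KEAP1, and 8 genes that NRF2 is known to activate, NQO1, HMOX1, GCLM, GCLC, TXNRD1, SRXN1, SLC7A11 and ME1. They are 10 of the 22439 genes with a symbol on the array. Probes were named through RefSeq accessions, which gave a symbol to 31104 of the 58201 probes, and probes named otherwise were not counted. Each of the 10 genes has 1 named probe, and 8 of the 10 gave a signal well above background on all 8 arrays, as did 10956 genes in all. The cells were A431, an established human squamous carcinoma line, transfected with 10 nM of a control microRNA (miR-NC) or of miR-634 and lysed after 24 h. From each transfection, RNA that came down with an antibody against AGO2 (RIP) was hybridised on 2 arrays and the RNA taken as input on a further 2, which gave 4 groups. The labels of the input arrays name a normal rabbit IgG antibody, whereas the study's methods describe the input as total RNA. All samples came from 1 cell line with transient overexpression. The study's methods state that experiments were done in duplicate, but not whether the 2 arrays of a group came from separate transfections. The p-values therefore measure the spread between arrays, which may be technical.

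NRF2, the protein of NFE2L2, is a transcription factor that switches on antioxidant, glutathione and detoxification genes. In unstressed cells KEAP1 binds NRF2 and hands it to a CUL3 ubiquitin ligase for degradation, and oxidants or electrophiles that modify KEAP1 let NRF2 accumulate and bind antioxidant response elements in the promoters of its target genes. Many squamous carcinomas keep this system active, which protects their cells from oxidative damage. A microRNA guides AGO2 to mRNAs that pair with its seed, and the bound mRNAs are repressed or degraded. RNA that comes down with AGO2 is therefore read against the input, and the comparison of both transfections asks which mRNAs gained or lost AGO2 association with miR-634.

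The sequence of miR-634 decides which mRNAs it can pair with, and is shown for that reason. The RefSeq entry places it at chr17:66787132-66787153 of GRCh38.p14 on the plus strand, with a length of 22 bases. The seed, bases 2 to 8 from the 5′ end, is in capitals.
hsa-miR-634: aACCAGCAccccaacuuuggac
Transcript sequences were not used here, so no pairing of this seed with the mRNAs below was examined.

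Of the 60901 spots on each array that were not controls, the share with a signal well above background was 45.6 to 45.8% for input arrays. It was 33.6 and 34.5% for miR-NC RIP and 40.0% for both arrays of miR-634 RIP, and no spot was saturated. The 8 arrays lay on 1 slide and were scanned together, with the input arrays in slide row 1 and the RIP arrays in row 2, so that slide row and fraction cannot be told apart. Likewise, the miR-NC arrays lay in columns 1 and 2 and the miR-634 arrays in columns 3 and 4, so that column and transfection cannot be told apart either. All 7 squamous keratinocyte markers (KRT5, KRT14, KRT6A, KRT17, TP63, EGFR and SFN) were above background on the 4 input arrays, with summed intensities of 203986 to 206824 in miR-NC input and 223177 to 239318 in miR-634 input. Of the markers of other cell types, 1 of 6 fibroblast genes (LUM), 1 of 6 immune genes (CSF1R; 4 of the 6 had a probe) and 2 of 5 endothelial genes (VWF and CDH5) were above background on those arrays.

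Levels are given as log2 intensity minus the 75th percentile of the same array, taken over probes well above background on all arrays. A level of 0 is thus the brightness of that percentile, and levels of different probes cannot be compared. The fold change of enrichment is RIP over input in miR-634 cells divided by RIP over input in miR-NC cells, the input change is miR-634 input over miR-NC input, and the RIP change is miR-634 RIP over miR-NC RIP. A gene was called at an adjusted p under 0.05 in limma over the 10956 genes. Among the 8 measured members the fold change of enrichment was called higher for 3 (SRXN1, TXNRD1 and NQO1) and lower for 3 (KEAP1, GCLC and GCLM), against 28.1% of all genes called higher and 43.3% called lower. Their median log2 fold change of enrichment was 0.06, and that of all genes was -0.22. At these shares the members' count in either direction does not stand apart from what genes in general showed on these arrays.

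**Figure D1:**
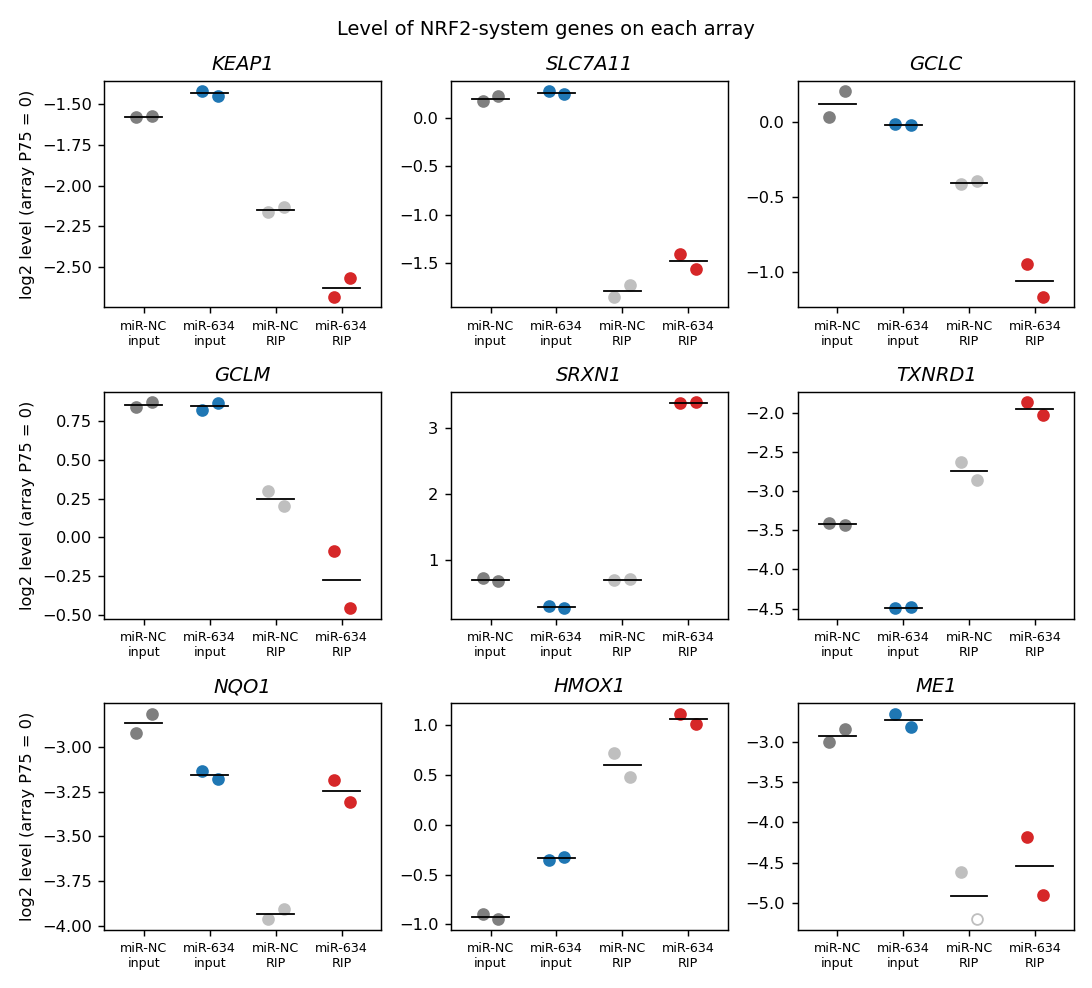
Log2 levels (log2 intensity minus the 75th percentile of the array) of 9 members on each of the 8 arrays, with a point for each array and a line at the mean of each group of 2 arrays; an open circle marks a value that was not well above background. The miR-634 RIP arrays of SRXN1 sit at 3.38 and 3.39, against 0.70 on both miR-NC RIP arrays.

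NFE2L2, the gene of NRF2 itself, was not measurable with its named probe. Its probe (A_33_P3225600, NM_006164) read intensities of 4.08 to 5.19 and was well above background on 0 of 8 arrays, where the lowest intensity well above background ranged from 16.5 to 20.8. The study names NRF2 among the known targets of miR-634, and by western blot it reports lower NRF2 expression after miR-634 overexpression. That is a protein measure, which these arrays do not give. Because the probe stayed below the limit, no level, direction or fold of NFE2L2 mRNA is given for any group. This probe holds no statement on whether the mRNA changed with miR-634.

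KEAP1 (A_23_P119141, NM_203500), the adaptor that holds NRF2 for degradation, had a lower RIP level with miR-634 relative to the 75th percentile of the array. Its unscaled RIP intensities were higher with miR-634, at 214 and 224 against 159 and 153 in miR-NC RIP. Its log2 levels were -1.58 and -1.57 in miR-NC input, -1.42 and -1.45 in miR-634 input, -2.16 and -2.13 in miR-NC RIP, and -2.69 and -2.57 in miR-634 RIP. The miR-634 RIP arrays lay below both miR-NC RIP arrays, whereas the miR-634 input arrays lay slightly above the miR-NC input arrays. The log2 fold change of enrichment was -0.62 (SE 0.07, n = 2 arrays a group, limma adjusted p = 0.000401). The input change of 0.14 did not pass (adjusted p = 0.103, 95% interval 0.01 to 0.27). On the scale of the spike-in probes, RNAs added in equal amounts as a control, the log2 fold change of enrichment of KEAP1 was 0.44 and its log2 RIP change was 0.35. On that scale, the median of all genes moved from -0.22 to 0.85, and KEAP1 lay 0.40 below that median on both scales.

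Cystine uptake and glutathione synthesis are represented by SLC7A11, the light chain of the cystine and glutamate exchanger, and by GCLC and GCLM, the catalytic and modifier subunits of glutamate-cysteine ligase, the rate-limiting enzyme of glutathione synthesis. Both ligase subunits had a lower fold change of enrichment with miR-634 on the percentile scale, whereas the value of SLC7A11 was above 0 and did not pass. GCLC (A_23_P145114, NM_001498) had log2 levels of 0.04 and 0.21 in miR-NC input, -0.01 and -0.02 in miR-634 input, -0.41 and -0.40 in miR-NC RIP, and -0.95 and -1.17 in miR-634 RIP. GCLM (A_33_P3265606, NM_002061) had log2 levels of 0.84 and 0.87 in miR-NC input, 0.82 and 0.87 in miR-634 input, 0.30 and 0.20 in miR-NC RIP, and -0.09 and -0.46 in miR-634 RIP. On this percentile scale the miR-634 RIP arrays were the lowest of the 8 for both subunits. The unscaled RIP intensities were higher with miR-634, at 710 and 590 against 536 and 509 in miR-NC RIP for GCLC. For GCLM they were 1294 and 967 against 878 and 770. The log2 fold change of enrichment was -0.52 for GCLC (SE 0.12, adjusted p = 0.00887) and -0.51 for GCLM (SE 0.16, adjusted p = 0.0289). Neither input change passed, at -0.14 for GCLC (95% interval -0.35 to 0.07) and -0.01 for GCLM (95% interval -0.29 to 0.27).

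The calls of both ligase subunits depended on the scale. With the percentile taken over all probes, the adjusted p was 0.0568 for GCLC and 0.0764 for GCLM, and on the spike-in scale their log2 fold changes of enrichment were 0.54 and 0.55, which were 0.30 and 0.29 below the median of all genes. The call of GCLM was also lost without a filter on dim probes (adjusted p = 0.0649) and when any input array or the first miR-NC RIP array was left out, at log2 values of -0.54 to -0.46. Without the first or the second miR-634 RIP array its log2 value was -0.70 or -0.33, so its size depended on which of these arrays was kept. Such a fit leaves 1 array in that group, and the difference between these arrays is no longer part of the spread.

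SLC7A11 (A_33_P3242623, NM_014331) had log2 levels of 0.17 and 0.22 in miR-NC input, 0.27 and 0.24 in miR-634 input, -1.85 and -1.72 in miR-NC RIP, and -1.40 and -1.55 in miR-634 RIP. All RIP arrays lay far below all input arrays, and RIP over input was -1.98 in miR-NC cells, which ranked 10933 of 10956 genes, and -1.74 with miR-634. The log2 fold change of enrichment of 0.24 did not pass (SE 0.10, adjusted p = 0.0636, 95% interval 0.0051 to 0.48), while its RIP change of 0.31 did (adjusted p = 0.00643). The fold change of enrichment passed in 5 of the 11 other ways of processing, with a limma adjusted p of 0.0472 after normexp background correction and quantile normalisation. These 5 include the spike-in scale, where its log2 value was 1.31 and the median of all genes was 0.85. SLC7A11 lay 0.46 above the median of all genes on both scales. Its log2 value was 0.31 without the second miR-NC RIP array and 0.32 without the second miR-634 RIP array. Without the first of each it was 0.18 and 0.17.

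SRXN1 and TXNRD1 of the thioredoxin and peroxiredoxin branch had the largest fold changes of enrichment and RIP changes among the members, and in both the input and the RIP moved in opposite directions. Sulfiredoxin, the product of SRXN1, repairs overoxidised peroxiredoxins, and thioredoxin reductase, the product of TXNRD1, keeps thioredoxin reduced with NADPH. SRXN1 (A_23_P320113, NM_080725) read intensities of 4781 and 4603 in miR-NC input, 3638 and 3207 in miR-634 input, 1156 and 1091 in miR-NC RIP, and 14352 and 13946 in miR-634 RIP. These correspond to log2 levels of 0.72 and 0.68, 0.30 and 0.26, 0.70 on both arrays, and 3.38 and 3.39. The groups do not overlap in either fraction, and the miR-634 RIP arrays stood far above the other 6. The fold change of enrichment was 8.60 (log2 3.10, SE 0.06, adjusted p = 6.23e-07), which ranked 71 of 10956 genes. In the input SRXN1 fell by 0.42 on the log2 scale (SE 0.04, adjusted p = 0.00174), and in the RIP it rose 6.45-fold (log2 2.69, SE 0.04, adjusted p = 1.26e-07).

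Relative to the percentile of each array, SRXN1 had no detected difference between RIP and input in miR-NC cells (log2 -0.0001, adjusted p = 0.998). On the same scale it was 8.60-fold higher in RIP than in input in miR-634 cells (log2 3.10, adjusted p = 6.88e-08). On the spike-in scale these log2 values were -2.47 and 1.70, where the medians of all genes were -2.59 and -1.58. TXNRD1 (A_33_P3351120, NM_001261445) read intensities of 275 and 266 in miR-NC input, 131 and 120 in miR-634 input, 116 and 92.8 in miR-NC RIP, and 378 and 325 in miR-634 RIP. Its log2 levels were -3.40 and -3.43, -4.50 and -4.48, -2.62 and -2.85, and -1.87 and -2.03 in the same order. The miR-634 arrays were lowest in the input and highest in the RIP, with no overlap of groups. Its fold change of enrichment was 3.63 (log2 1.86, SE 0.13, adjusted p = 3.31e-05), the input change fell by 1.07 on the log2 scale (fold 0.476, SE 0.09, adjusted p = 0.000961), and the RIP rose 1.73-fold (log2 0.79, adjusted p = 0.000228). It ranked 10927 of 10956 genes by input change, close to the lowest. The enrichment, input and RIP changes of SRXN1 and TXNRD1 kept their direction and their call in each of the 19 alternatives. Fewer TXNRD1 transcripts per cell and fewer cells that contain them cannot be told apart in bulk RNA. All TXNRD1 values rest on its 1 named probe, and which TXNRD1 transcripts this probe reads was not examined.

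NQO1 and HMOX1 represent detoxification and heme breakdown, and only NQO1 gained enrichment with a call. NQO1, a quinone reductase, is widely used as a readout of NRF2 activity, and HMOX1, heme oxygenase 1, opens heme to biliverdin, iron and carbon monoxide. NQO1 (A_23_P206661, NM_000903) had log2 levels of -2.92 and -2.81 in miR-NC input, -3.14 and -3.18 in miR-634 input, -3.96 and -3.90 in miR-NC RIP, and -3.19 and -3.31 in miR-634 RIP. Its miR-634 RIP arrays lay near the level of its input arrays and above both miR-NC RIP arrays. The fold change of enrichment was 1.97 (log2 0.98, SE 0.09, adjusted p = 0.000121), and it kept its direction and call in each of the 19 alternatives. NQO1 also fell by 0.29 on the log2 scale in the input (SE 0.06, adjusted p = 0.0217) and rose 1.61-fold in the RIP (adjusted p = 8.5e-05). The input fall lost its call in 6 of the 11 other ways of processing, at -0.52 to -0.15, and whenever 1 of the 4 input arrays was omitted.

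HMOX1 (A_23_P120883, NM_002133) had log2 levels of -0.89 and -0.95 in miR-NC input, -0.35 and -0.32 in miR-634 input, 0.73 and 0.49 in miR-NC RIP, and 1.12 and 1.01 in miR-634 RIP. It rose in both fractions, by 1.50-fold in the input (log2 0.59, SE 0.09, adjusted p = 0.00575) and by 1.37-fold in the RIP (log2 0.46, adjusted p = 0.00267). The log2 fold change of enrichment was therefore small, at -0.13 (adjusted p = 0.372, 95% interval -0.42 to 0.17), and without the second miR-NC RIP array it was -0.25 and passed (adjusted p = 0.0461). Without the first it was -0.0084, and on the spike-in scale it was 0.93 and passed in the other direction (adjusted p = 0.00233). HMOX1 ranked 125 of 10956 genes by input change, and on the spike-in scale this change was 0.36 and did not pass (adjusted p = 0.282). RIP over input was 2.88-fold in miR-NC cells and 2.64-fold in miR-634 cells, both past the test (adjusted p = 8.77e-06 and 7.29e-06).

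ME1, cytosolic malic enzyme, which makes NADPH, was measured on 7 of the 8 arrays and stood outside the fit above. Its probe (A_23_P8196, NM_002395) read intensities of 362 and 400 in miR-NC input, 469 and 378 in miR-634 input, 29.1 and 18.2 in miR-NC RIP, of which the 18.2 was not well above background, and 75.4 and 44.5 in miR-634 RIP. With a filter on the input arrays only, its log2 input change was 0.19 (SE 0.29, adjusted p = 0.740, 95% interval -0.53 to 0.91), which did not pass. RIP over input in miR-634 cells was low, at a log2 value of -1.81 (adjusted p = 0.00185). Because only 1 of the 2 miR-NC RIP arrays measured ME1, no fold is given for that group, nor for the changes that rest on it.

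Taking the fractions apart, the 8 measured members had 1 called higher (HMOX1) and 3 called lower (TXNRD1, SRXN1 and NQO1) in the input, against 11.7% and 12.1% of all genes. In the RIP, 5 were called higher (SRXN1, TXNRD1, NQO1, HMOX1 and SLC7A11) and 3 lower (GCLC, GCLM and KEAP1), against 30.9% and 46.5%. Being called lower in the input and higher in the RIP held for SRXN1, TXNRD1 and NQO1, and for 7.37% of all genes. Medians of the members were -0.08 for the log2 input change and 0.38 for the log2 RIP change, where all genes had -0.0041 and -0.18. The fold change of enrichment is the RIP change minus the input change on the log2 scale and shares their arrays, so that these counts are not separate evidence.

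**Figure D2:**
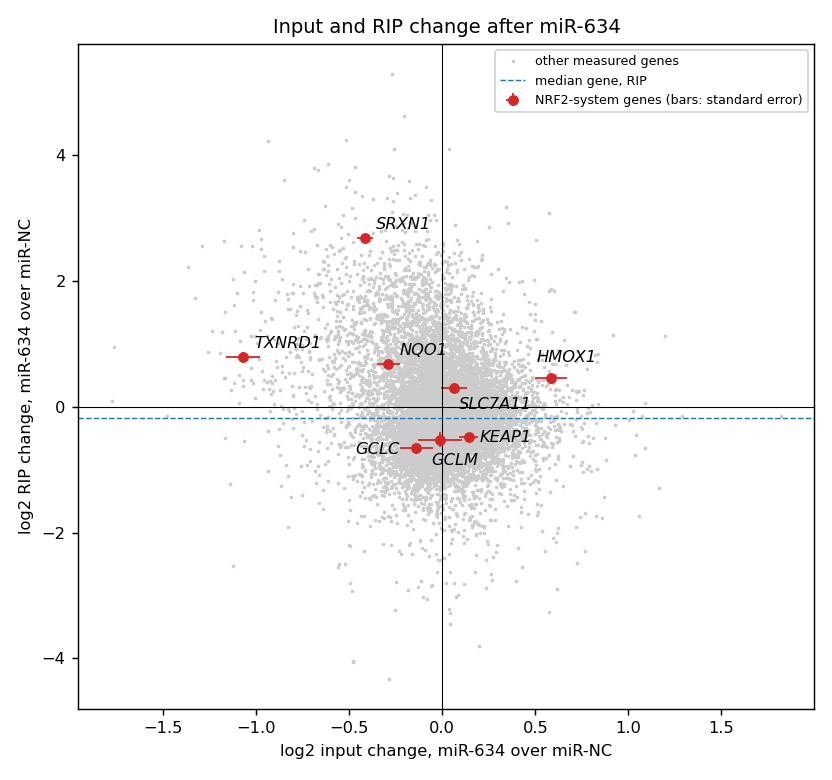
Log2 RIP change (y axis) against log2 input change (x axis), miR-634 over miR-NC, of the 8 measured members (red, bars for the standard error) and all other measured genes (grey), with a dashed line at the median RIP change of all genes. SRXN1, TXNRD1 and NQO1 lie at the upper left (input -0.42, -1.07 and -0.29; RIP 2.69, 0.79 and 0.69), HMOX1 at the upper right (0.59; 0.46), and GCLC, GCLM and KEAP1 below the dashed line at -0.18.

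AGO2 association in the cells with the control microRNA differed between the members. RIP over input in miR-NC cells was called higher for 2 (HMOX1 and TXNRD1) and lower for 5 (SLC7A11, NQO1, GCLM, KEAP1 and GCLC), against 33.6% and 45.3% of all genes. In miR-634 cells it was called higher for 3 (SRXN1, TXNRD1 and HMOX1) and lower for 4 (SLC7A11, KEAP1, GCLM and GCLC), against 36.1% and 48.3%. TXNRD1 went from 1.60-fold over input in miR-NC cells to 5.82-fold in miR-634 cells. NQO1 went from a log2 value of -1.06 (adjusted p = 1.1e-05) to -0.09, which did not pass (adjusted p = 0.227). On the spike-in scale RIP over input in miR-NC cells was called lower for 8 of 8. The share of all genes called there is not given. The median of all genes was -2.59, so that a low value on this scale is not particular to the members. HMOX1 at -0.94 and TXNRD1 at -1.79 lay above that median.

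**Figure D3:**
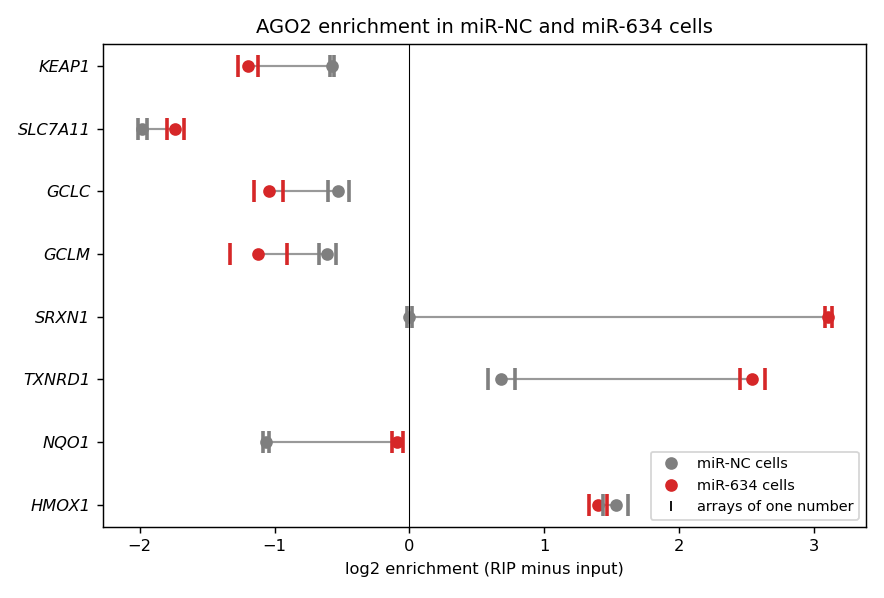
Log2 enrichment (RIP minus input level, x axis) of the 8 measured members in miR-NC cells (grey) and miR-634 cells (red), with a circle at the mean, a short bar for the arrays of each replicate number (which names the arrays but does not pair them) and a line joining the transfections. The line is the fold change of enrichment, and it runs from -0.0001 to 3.10 for SRXN1, from 0.68 to 2.54 for TXNRD1 and from -1.06 to -0.09 for NQO1.

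**Figure D4:**
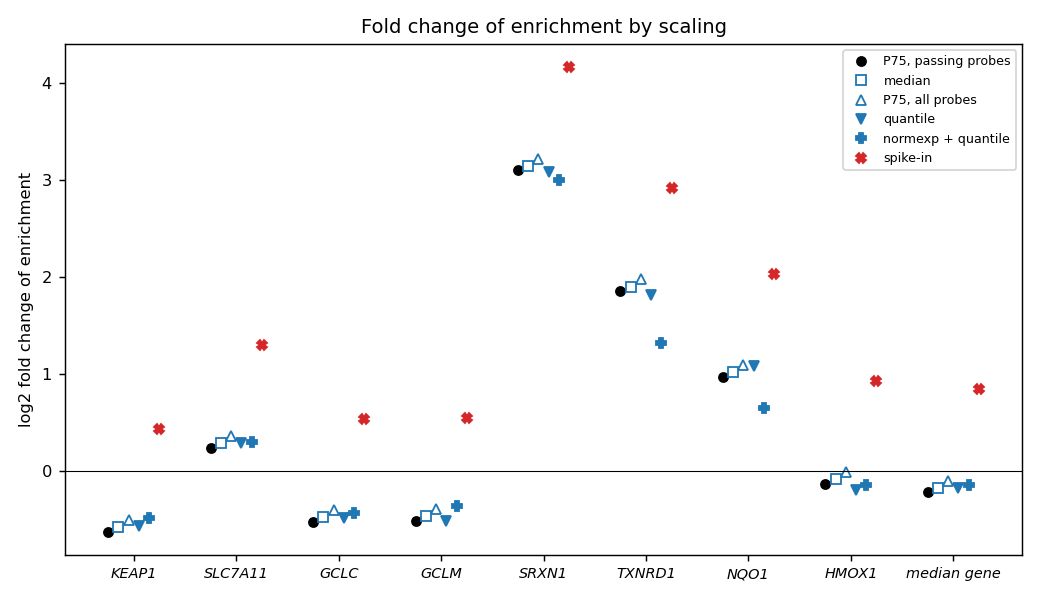
Log2 fold change of enrichment of the 8 measured members and of the median gene under 6 scalings, with a black circle for the 75th percentile (P75) over passing probes, blue symbols for 4 others and a red cross for the spike-in probes. The median gene goes from -0.22 to 0.85 on the spike-in scale and the members move up with it, so that KEAP1, GCLC, GCLM and HMOX1, below 0 at the black circle, lie above 0 at the red cross.

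The promoters of the members are shown because NRF2 is known to act there through the antioxidant response element. Its core, TGACNNNGC, was searched on both strands in windows of 300 bases, from 250 before to 50 after the gene start (RefSeq, GRCh38.p14). These windows were given for 8 of the 10 members, not for HMOX1 and SLC7A11, and 4 of the 8 held at least 1 match, GCLM, ME1, TXNRD1 and KEAP1. Some members have several windows, and 5 of their 11 windows held a match, against 13.3% of all 35116 promoter windows. The core of the motif is in capitals in each run of 30 bases below, read 5′ to 3′ on the strand of the gene, with the match furthest upstream in 1 window of each gene. The GCLM match lies on the opposite strand, and only the ME1 match also holds TGACTCA, the motif of AP-1.
GCLM, chr1:93909445-93909474, minus strand, 34 bases before the start: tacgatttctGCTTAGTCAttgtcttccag
ME1, chr6:83431169-83431198, minus strand, 137 bases before the start: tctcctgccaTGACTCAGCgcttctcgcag
TXNRD1, chr12:104215670-104215699, plus strand, 99 bases before the start: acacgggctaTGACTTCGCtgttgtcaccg
KEAP1, chr19:10502806-10502835, minus strand, 54 bases before the start: acttttattgTGACACGGCgggcgcccggc
Among these 4 genes the input change was called for TXNRD1 alone, with ME1 taken from its own fit. Of the other measured members with a window, which held no match (SRXN1, NQO1 and GCLC), the input change of SRXN1 and NQO1 was called. A match is a description of the letters in the window and no evidence that NRF2 binds there.

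Beyond the members, 91 further genes of the NRF2 system were listed in 8 groups by function, of which 88 had a probe and 79 were measured. The fold change of enrichment was called higher for 32 and lower for 26 of the 79, where 28.1% and 43.3% of all genes were called, with a median log2 value of 0.08 against -0.22 for all genes. With the percentile over all probes 17 were called lower, and on the spike-in scale 59 were called higher and 0 lower. In these settings the median log2 value of all genes was -0.098 and 0.85, and the share of all genes called is not given. In the input 5 were called higher and 27 lower (11.7% and 12.1% of all genes), with a median log2 value of -0.14 against -0.0041. In the RIP 30 were called higher and 33 lower (30.9% and 46.5% of all genes). The 27 input falls were not stable in number: there were 12 with the percentile over all probes and 9 without a filter on dim probes. Fewer were also called when any 1 of the 4 input arrays was left out, which leaves 1 array in that group. The share of all genes called in these settings is not given, so this drop is not shown to be particular to these genes. By group, the input was called lower for 9 of 19 glutathione genes, 7 of 14 detoxification genes, 5 of 7 heme and iron genes, 4 of 15 thioredoxin genes, 1 of 8 NADPH genes, 1 of 4 superoxide and catalase genes, 0 of 9 regulators and 0 of 3 other NRF2 targets, and differences between the groups were not tested.

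**Figure D5:**
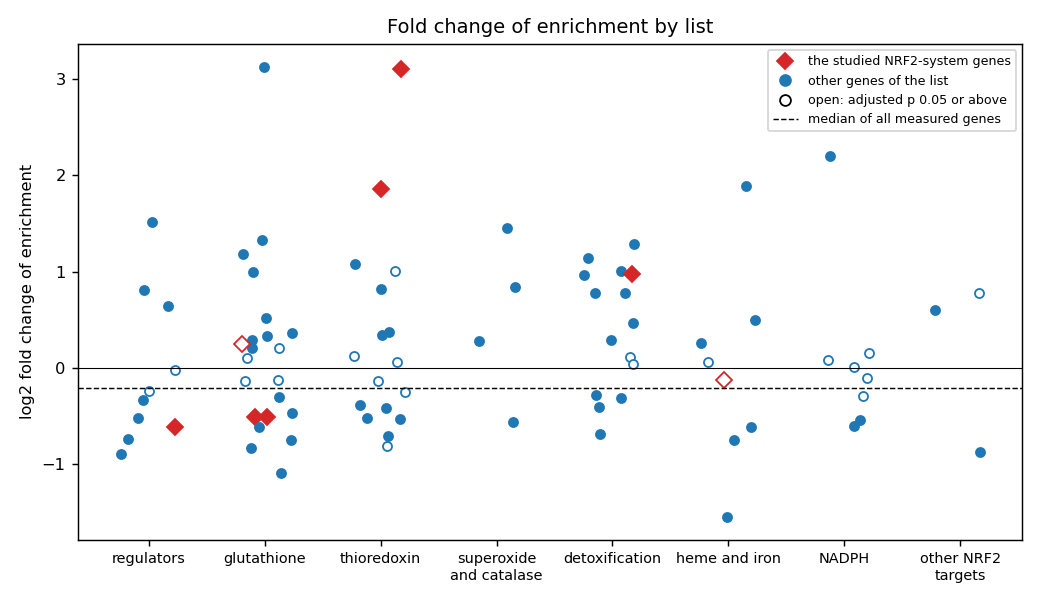
Log2 fold change of enrichment (y axis) of the measured members (red diamonds) and the other measured genes (blue circles) in each of the 8 functional groups; open symbols did not pass at an adjusted p of 0.05, side shifts within a group carry no value, and the dashed line is the median of all genes at -0.22. Called genes lie on both sides of 0 in every group. Of the 19 other glutathione genes, 9 were called higher and 6 lower, against 28.1% and 43.3% of all genes.

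Among the 9 regulators, the fold change of enrichment was called higher for 3 and lower for 4, against 28.1% and 43.3% of all genes. These shares also apply to the groups below, and no group was tested against them. RBX1, the RING subunit of the CUL3 ligase, rose 2.87-fold (log2 1.52, adjusted p = 1.43e-05), and MAFG, a small MAF protein that pairs with NRF2 on DNA, had a log2 value of 0.81. SQSTM1, the autophagy receptor p62 that binds KEAP1, and CUL3, the scaffold of the ligase, had log2 values of -0.90 and -0.74. SQSTM1 also rose in the input (log2 0.36, adjusted p = 0.0124).

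In the glutathione group, 9 of 19 were called higher and 6 lower, against 28.1% and 43.3% of all genes. GSTA4, a glutathione S-transferase of lipid aldehydes, gained most, 8.78-fold (log2 3.13, adjusted p = 9.95e-07), with an input fall of 0.63 on the log2 scale and a RIP rise of 2.51. GLRX5, a mitochondrial glutaredoxin, followed at 1.33, while GLRX and GPX8 had log2 values of -1.10 and -0.84. In the thioredoxin group, 4 of 15 were called higher, led by the peroxiredoxin PRDX5 (1.08) and TXNL1 (0.82), and 5 lower, led by the methionine sulfoxide reductase MSRA (-0.72) and the thioredoxin inhibitor TXNIP (-0.53). Of the 4 measured genes against superoxide and peroxide, CCS, the copper chaperone of superoxide dismutase, stood at 1.45 and catalase (CAT) at 0.84, whereas SOD1 stood at -0.56.

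Among the 14 detoxification genes, 8 were called higher and 4 lower, against 28.1% and 43.3% of all genes. The ketosteroid reductase AKR1C1 (log2 1.28) and the exporter ABCC5 (1.14) rose most in fold change of enrichment, and both fell in the input, at -0.62 and -0.87. AKR1C1 has near-identical copies, so that its probe may read several of them. NQO2 and ALDH3A1 had log2 fold changes of enrichment of -0.69 and -0.41. Of the 7 heme and iron genes, 3 were called higher, among them the biliverdin reductases BLVRA (1.89) and BLVRB (0.50), and 3 lower, among them the ferritin heavy chain gene FTH1 (-1.56) and HMOX2 (-0.76). FTH1, which also has many near-identical copies, did not pass in the input (log2 0.0004). Of the 8 NADPH genes, PGD, a dehydrogenase of the pentose phosphate pathway, rose 4.62-fold (log2 2.21, adjusted p = 4.69e-06), whereas TALDO1 of the same pathway had a log2 value of -0.55. The other 3 measured NRF2 targets included OSGIN1 at 0.60 and ABHD4 at -0.88. For comparison, the genes that the study names as known targets of miR-634, apart from NFE2L2, which could not be measured, were called higher for the fold change of enrichment in 6 of 6 cases, against 28.1% of all genes, with a median log2 value of 1.32. The study had already reported LAMP2, TFAM, APIP, BIRC5 and XIAP as enriched on these same arrays, so that their calls are not separate evidence.

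The likeness of each measured member to the listed genes was the root mean square distance between their 8 log2 levels, each taken relative to the mean of the miR-NC input arrays of the gene, over 86 candidates. This is a description over 8 arrays of 4 groups and carries no test. SRXN1 was nearest to GSTA4, at a distance of 0.154, with PGD next at 0.522. GSTA4 had log2 levels of -1.96 and -2.03 in miR-NC input, -2.56 and -2.68 in miR-634 input, -2.01 and -2.05 in miR-NC RIP, and 0.45 and 0.51 in miR-634 RIP. As for SRXN1, the miR-634 arrays were lowest in the input and highest in the RIP. GCLM was nearest to GCLC (0.101), and GCLC (0.0896) and KEAP1 (0.132) were nearest to TXNRD3. NQO1 was nearest to CAT (0.156). TXNRD1 (ABCC5, 0.380), SLC7A11 (ME2, 0.371) and HMOX1 (CBR1, 0.410) had no neighbour as close.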

How the data were processed

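The authors deposited scanner intensity files of 8 one-colour arrays (Agilent 8 × 60K; Feature Extraction 12.0.1.1 per the file headers, 9.1 per the submitters' processing notes) and a table of log2 values. Those log2 values follow the processed intensity, scaled to the 75th percentile over all probes and centred on the median of each probe. Here, log2 processed intensity minus the 75th percentile of each array, over the 16805 probes well above background on all 8 arrays, was used. Probes were named by RefSeq accession (GRCh38.p14), and the brightest passing probe stood for a gene. A mean for each of the 4 groups was fitted with limma 3.58.1 (R 4.3.3; lmFit, eBayes) and p-values were adjusted by Benjamini-Hochberg. Array number limits the precision. On simulated data for the fold change of enrichment (10956 genes, 200 changed), 80% of changes of log2 1 and 41% of log2 0.5 were recovered, and 4.19% and 7.87% of calls were unchanged genes. In the arrays themselves a far larger share of genes was called, 28.1% higher and 43.3% lower, so these rates do not carry over to them.

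The members and the lists were chosen with earlier results of these data known. Named besides the members were, per list, up to 2 genes with the largest called rise and 2 with the largest called fall of enrichment, and the gene most like each member; 1 gene that this rule names is not reported here. The 19 alternatives were 11 of background correction, scaling, filter, probe choice, variance model or replicate block, and 8 that left out 1 array. Replicate numbers did not pair the arrays: the correlations of their deviations between groups were -0.04 to 0.08. Columns of other series were not present (0 columns).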

Additional observations from a re-analysis of the deposited data

Results flagged for a closer look

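The input and the RIP moved in opposite directions with miR-634, each with a call, for 3 of the 8 measured members. On the log2 scale, the fold change of enrichment, which is the RIP change minus the input change on the same arrays and so no separate evidence, was 3.10 for SRXN1 (adjusted p = 6.23e-07), 1.86 for TXNRD1 (adjusted p = 3.31e-05) and 0.98 for NQO1 (adjusted p = 0.000121). The input call of NQO1 was lost in 6 of the 11 other ways of processing and whenever 1 of the 4 input arrays was left out, so that the count of 3 depends on these settings. On the same arrays 7.37% of all genes were called lower in the input and higher in the RIP. The share of spots well above background was also higher in miR-634 RIP (40.0%) than in miR-NC RIP (33.6 and 34.5%), and its part in these values was not tested.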

How the results depend on the processing

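The fold changes of enrichment of SRXN1 (3.01 to 4.17), TXNRD1 (1.33 to 2.92) and NQO1 (0.65 to 2.04) kept their direction and call in 19 of 19 alternatives. Each member has 1 named probe, so counts over probes are counts over genes. The share of all genes called is not given for any setting of this section. On the spike-in scale the called members were 5 higher and 0 lower for enrichment, 0 higher in the input, 0 lower in the RIP, and 0 higher and 8 lower for RIP over input in miR-NC cells. Medians of all genes on that scale were 0.85, -0.23, 0.65 and -2.59 in the same order. There the log2 values that changed sign were 0.44 (KEAP1), 0.93 (HMOX1), 0.55 (GCLM) and 0.54 (GCLC) for enrichment, -0.088 (KEAP1) and -0.17 (SLC7A11) for the input, 0.35 (KEAP1), 0.31 (GCLM) and 0.17 (GCLC) for the RIP, and -0.94 (HMOX1) and -1.79 (TXNRD1) for RIP over input in miR-NC cells, with -0.0071 (HMOX1) in miR-634 cells. With the percentile over all probes, and with the authors' values, 1 member was called lower for enrichment. Of the other genes of the system, 59 were called higher and 0 lower for enrichment on the spike-in scale, 0 higher and 10 lower in the input, and 51 higher and 2 lower in the RIP. With the percentile over all probes or the authors' values, 17 were called lower for enrichment and 12 lower in the input, and without a filter 2 were called higher and 9 lower in the input. Values near 0 also changed sign: the input change of GCLM was 0.0034 with quantile normalisation, 0.043 with the percentile over all probes, 0.042 with the authors' values, and -0.037 to 0.013 with 1 array left out, above 0 without the second miR-NC or the first miR-634 input array. RIP over input of SRXN1 in miR-NC cells was 0.024 with normexp, 0.021 with quantile normalisation, 0.049 with median scaling, and -0.017 to 0.017 with 1 array left out, above 0 without the first miR-NC array of either fraction. RIP over input of NQO1 in miR-634 cells was 0.070 with normexp, 0.015 with quantile normalisation, 0.0053 with median scaling, 0.020 with the percentile over all probes and 0.019 with the authors' values. The cause of these shifts was not tested, apart from the spike-in scale, which by construction adds 1 amount per array to every gene. Leaving out 1 array gave 3 to 4 members called higher and 2 to 4 lower for enrichment, and 2 to 3 lower and 1 higher in the input. For the other genes it gave 28 to 33 higher and 21 to 27 lower for enrichment, 2 to 7 higher and 7 to 28 lower in the input, and 29 to 32 higher and 30 to 35 lower in the RIP. With the replicate number as a block, the fold changes of enrichment of the members were called higher for 3 and lower for 3, and no other call of the members changed. All arrays lay on 1 slide, so no slide block was fitted. A dim probe limits NFE2L2 and ME1.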
